A study of Mus musculus with 12 samples.

Results

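The receptors that share the common γ chain (γc), the kinase bound to that chain and the STAT5 factors below it were followed as 10 genes: Il2ra, Il2rb, Il2rg, Il4ra, Il7r, Il21r, Il15ra, Jak3, Stat5a and Stat5b. They were chosen by name, though with earlier results of these data known, and are 10 of the 55401 genes in the deposited count table. All 10 passed the filter on low counts, which left 22107 genes for testing. RNA was sequenced from double negative T cells, which carry CD3 but neither CD4 nor CD8, sorted live as CD45+ NK1.1- cells from adult C57BL/6 mouse liver. Arachidonic acid (AA), a polyunsaturated fatty acid that cells turn into prostaglandins, was given for 48 h. The 4 groups of 3 libraries were cells with a γδ T cell receptor with AA, the same kind of cell without AA, cells with an αβ receptor with AA, and those without AA. The labels leave unsaid whether cells without AA were kept in culture for the same time, and whether replicates were separate animals or cultures. A p-value here therefore reflects the spread between libraries, which may be technical only.

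Libraries held 6036487 to 30548253 counts, with the 3 lowest totals in αβ cells given AA. Trdc, the constant region of the receptor δ chain, stood at 210.4, 191 and 72.6 CPM in γδ with AA and at 271, 262 and 11.8 CPM in γδ without AA. Its level was 45.3, 4.83 and 58.0 CPM in αβ with AA and 3.71, 6.31 and 219 CPM in αβ without AA, so both libraries labelled replicate 3 without AA go against their labels. Replicates 1 and 3 of αβ with AA also exceeded replicates 1 and 2 of αβ without AA in Trdc. Cd3d, Cd3e and Cd3g summed to 127 and 255 CPM in the former, against 209 and 260 CPM in the latter. Whether those αβ libraries with AA hold γδ cells was not tested. The 3 constant genes of the α and β chains summed to 1543 to 2323 CPM in γδ with AA, 1533 to 1793 CPM in γδ without AA, 189 to 622 CPM in αβ with AA and 1467 to 1673 CPM in αβ without AA, so these genes do not separate the populations as labelled either. Results of the 10 genes that rest on the groups without AA are also given without the 2 libraries labelled replicate 3 without AA. This leaves the αβ libraries with AA in place. Of 29 values of other genes chosen by rule for AA against no AA, 0 changed sign without them, and those whose call changed are given with their gene. The 11 T cell markers were all detected in every group and summed to 1635 to 2791 CPM in γδ with AA, 1803 to 3160 CPM in γδ without AA, 402 to 1042 CPM in αβ with AA and 1712 to 2629 CPM in αβ without AA. Genes of other blood cells were also present. The 8 B cell markers were all detected in every group and summed to 643 to 2047, 1217 to 7130, 2243 to 10140 and 1662 to 11240 CPM in the same order of groups. The 12 macrophage and monocyte markers summed to 8273 to 23360, 3843 to 39590, 5716 to 13080 and 1903 to 25680 CPM, again in that order, with C1qc and Timd4 at 0 in γδ with AA and Clec4f at 0 in αβ without AA. Most of these sums was 1 gene, Lyz2, at 8046 to 22860, 3667 to 38580, 5440 to 12520 and 1788 to 24800 CPM. The 8 basophil and mast cell markers summed to 496 to 1023, 246 to 2391, 856 to 6257 and 592 to 3849 CPM in that order of groups. In αβ with AA these sums were 6257, 5974 and 856 CPM, against T cell marker sums of 558, 402 and 1042 CPM.

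Cytokines of the γc family signal through receptors that each contain γc, encoded by Il2rg, beside a chain of their own. IL-2 and IL-15 share the β chain encoded by Il2rb and add an α chain that raises affinity, while IL-4, IL-7 and IL-21 use Il4ra, Il7r and Il21r. JAK3 is the tyrosine kinase that binds γc, and the paired transcription factors STAT5A and STAT5B carry the signal of IL-2, IL-7 and IL-15 to the nucleus, where they support survival and division. In mice the IL-7 receptor is needed for γδ T cells to develop, and IL-15 sustains many unconventional T cells of the liver.

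Levels between genes are compared per length, as CPM (counts scaled to each library's TMM-adjusted depth) per kilobase of exon. In γδ with AA, Il2rb was highest at 132 ± 20.4 CPM per kilobase, followed by Il2rg at 124 ± 17.5 and Il7r at 115 ± 23.8 (SD, n = 3). In γδ without AA the order began with Il2rg at 123 ± 14.1 CPM per kilobase, then Il7r at 88.1 ± 40.6 and Il2rb at 85.3 ± 61.0. In αβ with AA, Il21r led at 70.3 ± 17.0 CPM per kilobase, then Il2rg at 55.75 ± 2.25 and Il2rb at 32.9 ± 20.4. In αβ without AA, Il2rg led at 109.7 ± 17.0 CPM per kilobase, then Il2rb at 95.9 ± 20.2 and Il21r at 86.15 ± 12.35. Of the 9 steps between neighbours in each order, the libraries overlapped at 8 in γδ with AA and at 7 in each of the other groups. Il15ra was the lowest of the 10 in every group, at 9.51 ± 4.63 CPM per kilobase in γδ with AA and 4.51 ± 2.81 in αβ without AA. It was apart from the next lowest gene, Stat5b, in both groups without AA. The step from Il21r down to Stat5a in γδ with AA, from Il21r to Il4ra in γδ without AA, from Il21r to Il2rg and from Il2rg to Il2rb in αβ with AA, and from Il2ra to Stat5a in αβ without AA were the other steps at which libraries stayed apart.

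**Figure D1:**
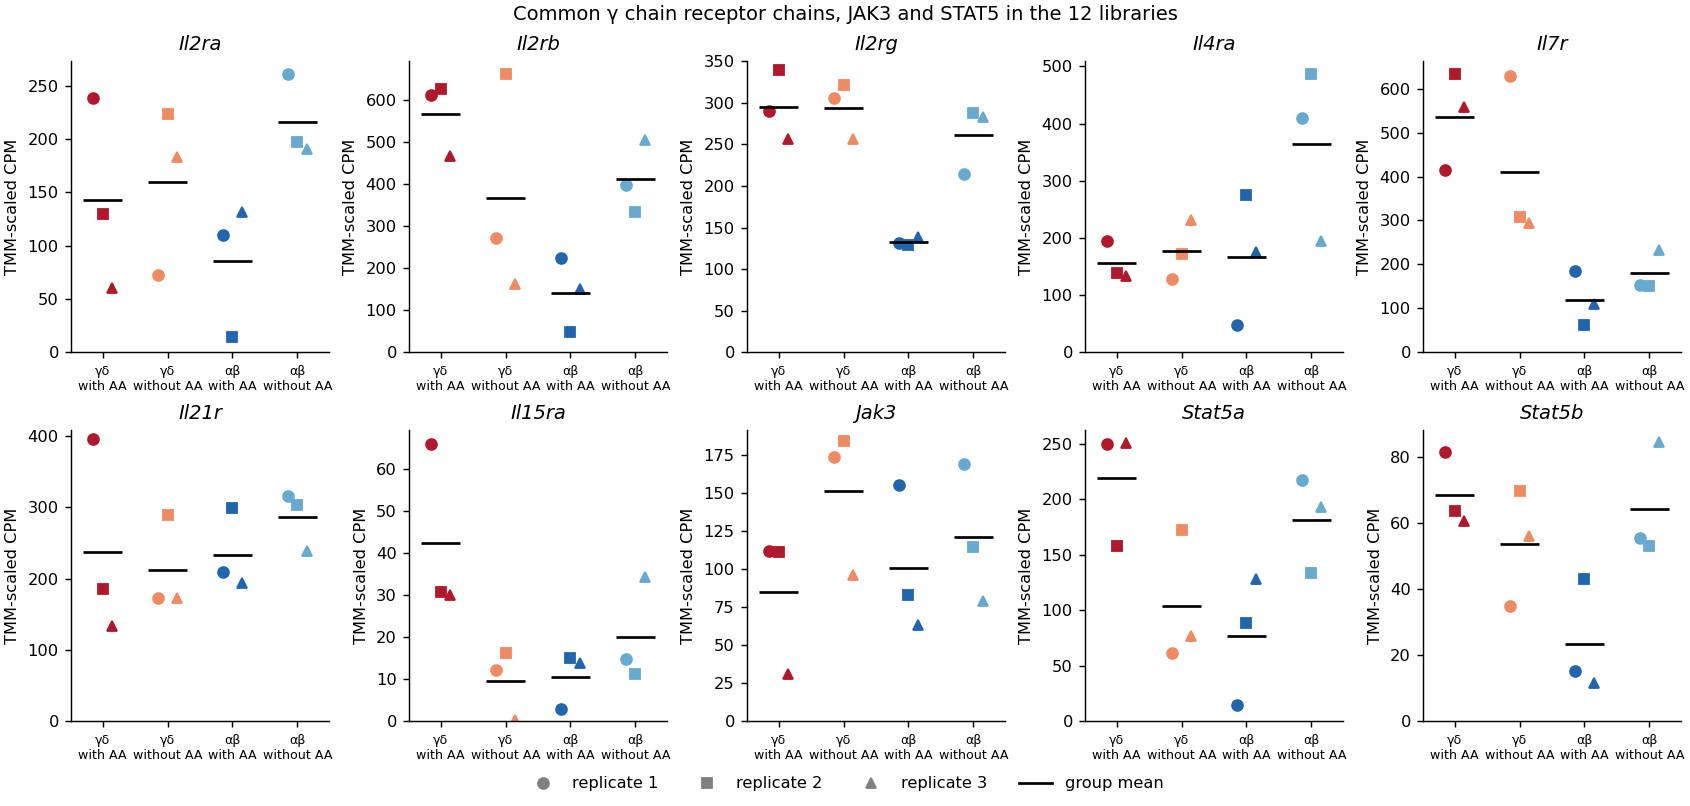
Level of each of the 10 genes in the 12 libraries, as TMM-scaled CPM (vertical axis) by group (horizontal axis). Markers show the replicates and the black line the mean of 3 libraries. Il7r is higher in all 6 γδ libraries than in all 6 αβ libraries on this scale, which overlap per CD3 count, and Il2rg lies between 129 and 139 CPM in the αβ libraries with AA, below the other 9.

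Il2rg (ENSMUSG00000031304.18), the γ chain shared by all these receptors, spread little within each group. In γδ libraries Il2rg stood at 289.9, 339.5 and 256.5 CPM with AA, against 306, 321 and 256 CPM without AA. In αβ libraries Il2rg was at 131, 129 and 139 CPM with AA, against 215, 287.5 and 283 CPM without AA. The αβ libraries with AA were lower than all of the other 9 libraries, which overlapped each other. The 250 bases before its start in RefSeq (GRCm38.p6, chrX:101268256-101268505, minus strand) are shown because it is the chain all members of the family need.
Il2rg: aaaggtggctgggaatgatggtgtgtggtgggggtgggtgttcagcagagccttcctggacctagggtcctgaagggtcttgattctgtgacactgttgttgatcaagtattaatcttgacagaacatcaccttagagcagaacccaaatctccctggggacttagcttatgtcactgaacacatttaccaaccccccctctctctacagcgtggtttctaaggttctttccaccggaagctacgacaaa
No match to the STAT5 consensus TTCNNNGAA, which reads the same on both strands, was found in its window. The same search found the motif in 8.3% of 32851 windows of 300 bases around gene starts in the table. Of the 10 genes, 9 had a window and Il7r alone held a match.

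Il2rb (ENSMUSG00000068227.9), the signalling β chain for IL-2 and IL-15, was at a similar level in the 3 γδ libraries with AA. In γδ libraries Il2rb stood at 610.5, 624 and 466 CPM with AA, against 273, 661 and 163 CPM without AA. In αβ libraries Il2rb was at 223, 49.1 and 151 CPM with AA, against 397, 333 and 504 CPM without AA. All αβ libraries with AA were lower than all αβ libraries without AA and than all γδ libraries with AA, while the γδ libraries without AA spanned both. Per length, the ratio of Il2rb to Il2rg was 1.17, 1.02 and 1.01 in γδ with AA, 0.497, 1.15 and 0.355 in γδ without AA, 0.948, 0.212 and 0.603 in αβ with AA and 1.03, 0.644 and 0.991 in αβ without AA. The ratio was higher in all γδ libraries with AA than in all αβ libraries with AA, and the other pairs of groups overlapped.

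Il2ra (ENSMUSG00000026770.5), the α chain CD25 that gives the IL-2 receptor its high affinity, varied widely within 3 of the 4 groups. In γδ libraries Il2ra stood at 238, 129 and 60.8 CPM with AA, against 73.0, 223 and 183 CPM without AA. In αβ libraries Il2ra was at 110.3, 14.1 and 131 CPM with AA, against 261, 197 and 190.5 CPM without AA. The αβ libraries with AA were all lower than those without AA, with replicate 2 far lower than the other replicates, and the γδ groups overlapped. Il15ra (ENSMUSG00000023206.16) encodes the α chain that binds IL-15 and presents it to other cells. Il15ra was at 66.0, 30.7 and 30.0 CPM in γδ with AA, against 12.2, 16.2 and 0.337 CPM in γδ without AA. In αβ libraries Il15ra stood at 2.82, 15.1 and 13.8 CPM with AA and 14.7, 11.1 and 34.3 CPM without AA. All γδ libraries with AA were higher than those without AA, and the lowest value rested on 7 counts, in replicate 3 of γδ without AA.

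Il7r (ENSMUSG00000003882.5), the α chain of the IL-7 receptor and of the TSLP receptor, was at separate CPM levels in the populations, though these overlapped per CD3 count both with and without AA. In γδ libraries Il7r stood at 416, 634 and 558 CPM with AA, against 629, 308 and 295 CPM without AA. In αβ libraries Il7r was at 184, 61.9 and 109.7 CPM with AA, against 154, 151 and 234 CPM without AA. All 6 γδ libraries were higher than all 6 αβ libraries, including both libraries whose Trdc goes against their labels. The 250 bases before its RefSeq start (GRCm38.p6, chr15:9529877-9530126, minus strand) hold the one STAT5 consensus match among the 9 genes with a window, 142 bases before the start and in capitals. It is shown because Il7r had the lowest adjusted p of the 10 genes in any comparison.
Il7r: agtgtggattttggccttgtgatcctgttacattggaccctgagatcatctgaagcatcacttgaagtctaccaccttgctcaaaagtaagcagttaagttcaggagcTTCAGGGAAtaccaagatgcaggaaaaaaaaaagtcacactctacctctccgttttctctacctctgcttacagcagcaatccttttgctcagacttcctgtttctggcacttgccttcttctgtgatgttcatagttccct
A match is only a run of letters and no record of binding.

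Il4ra (ENSMUSG00000030748.9), the α chain for IL-4 and IL-13, was highest in αβ without AA replicates 1 and 2. In γδ libraries Il4ra stood at 195, 138 and 134 CPM with AA, against 128, 173 and 232 CPM without AA. In αβ libraries Il4ra was at 47.7, 276 and 175 CPM with AA, against 409, 487 and 195 CPM without AA. The αβ groups overlapped, as did the γδ groups. Il21r (ENSMUSG00000030745.9), the chain that binds IL-21, differed less between group means than within γδ with AA. In γδ libraries Il21r stood at 396, 185 and 133 CPM with AA, against 173, 289 and 172.5 CPM without AA. In αβ libraries Il21r was at 209, 299 and 194 CPM with AA, against 316, 303 and 239.5 CPM without AA. Its highest value was in γδ with AA replicate 1 and its lowest in γδ with AA replicate 3, and all groups overlapped.

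Jak3 (ENSMUSG00000031805.17), the kinase bound to γc, overlapped between all groups. In γδ libraries Jak3 stood at 112, 112 and 31.2 CPM with AA, against 173.5, 184 and 96.3 CPM without AA. In αβ libraries Jak3 was at 156, 82.9 and 63.2 CPM with AA, against 169, 115 and 78.9 CPM without AA. The lowest library was γδ with AA replicate 3. Stat5a (ENSMUSG00000004043.14) stood at 249.5, 158 and 251 CPM in γδ with AA, against 61.7, 172 and 77.1 CPM in γδ without AA, which overlapped through replicate 2 of each. Stat5a was at 14.1, 88.2 and 128 CPM in αβ with AA, against 217, 134 and 193 CPM in αβ without AA, all lower with AA. Stat5b (ENSMUSG00000020919.11) stood at 81.3, 63.4 and 60.5 CPM in γδ with AA and at 34.9, 69.7 and 56.1 CPM in γδ without AA, which overlapped. In αβ libraries Stat5b stood at 15.1, 42.95 and 11.45 CPM with AA, against 55.2, 52.9 and 84.4 CPM without AA, again all lower with AA. The STAT5 genes are near-identical in much of their coding sequence, and the treatment of reads that match both is not given in the sources used here, so the split between them is uncertain. Per length, the ratio of Stat5a to Stat5b was 2.38, 1.94 and 3.22 in γδ with AA, 1.37, 1.92 and 1.07 in γδ without AA, 0.725, 1.595 and 8.71 in αβ with AA and 3.055, 1.96 and 1.77 in αβ without AA, with overlap between all groups except γδ with and without AA.

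In αβ cells, all 10 genes were lower with AA than without it at TMM scaling, beside 46.7% of all genes, and none passed the test. With DESeq2's size factors 8 of 10 were lower, Il21r and Jak3 being higher. With CD3 counts as library size 2 of 10 were lower, at a median over all genes of 2.11. At TMM scaling the median log2 fold change of the 10 genes was -1.05, beside 0.12 over all 22107 genes. At an adjusted p under 0.05 by edgeR, 0 of 10 were called, beside 0.0136% of all genes. DESeq2 and voom also called 0 of 10, beside 1.66% and 0.276% of all genes. At an unadjusted p under 0.05, 4 of 10 were lower, beside 6.01% of all genes. The libraries of 5 of 10 genes did not overlap and were lower, beside 10.9% of all genes. The share of counts from mitochondrial genes was 5.43%, 4.53% and 2.54% in αβ with AA, against 2.48%, 2.27% and 1.09% in αβ without AA, higher without overlap, and its part in these values was not tested. In these bulk libraries fewer cells of a type and less RNA per cell cannot be told apart.

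Il2rb had the largest difference, a log2 fold change of -1.54 ± 0.52 (SE) with a 95% interval of -2.66 to -0.43 and an edgeR adjusted p of 0.409. Stat5b followed at -1.47 ± 0.51 (interval -2.56 to -0.38), with the same adjusted p. Il2rg, with the smallest error, was lower by a log2 fold change of -0.98 ± 0.24 (interval -1.49 to -0.46) and an edgeR adjusted p of 0.269, the lowest of the 10. Il4ra was at -1.13 ± 0.51, Il2ra at -1.34 ± 0.67 and Stat5a at -1.24 ± 0.60, while Il15ra, Il7r, Il21r and Jak3 lay between -0.92 and -0.26. Without the 2 libraries that go against their labels, the log2 fold change was -1.49 ± 0.48 for Il2rb, -0.99 ± 0.32 for Il2rg and -1.26 ± 0.62 for Stat5b, and all 10 remained lower. The interval of Jak3 ran from -1.33 to 0.80 and so held changes of either sign.

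Cd3d, Cd3e and Cd3g, which encode the CD3 chains, were together also lower on average, at 127, 36.8 and 255 CPM in αβ with AA, against 209, 260 and 619 CPM in αβ without AA, with overlap through replicate 3 with AA. Of the 11 T cell markers 7 were lower with AA in αβ without overlap and 0 higher, beside 10.9% of all genes lower without overlap. The 3 constant genes of the α and β chains and Ptprc were also lower without overlap. In αβ with AA replicate 2 the CD3 genes held 693 counts. With these CD3 counts as library size, the log2 fold change in αβ was -0.12 ± 0.76 for Il2rb and -0.39 ± 0.82 for Il2ra, the 2 genes that were still lower. It was 0.97 ± 0.79 for Il2rg and 1.14 ± 0.98 for Stat5b, at a median over all genes of 2.11, so the median of the 10 genes, 1.06, lay below that of all genes on this scale as on the TMM scale. Per CD3 count, Il2rb stood at 1.76, 1.335 and 0.590 in αβ with AA, against 1.90, 1.28 and 0.813 in αβ without AA, which overlap. Il2rg stood at 1.035, 3.51 and 0.545 per CD3 count in αβ with AA, against 1.03, 1.11 and 0.457 in αβ without AA, and its high value was replicate 2. The part of the T cell share in the differences of the 10 genes was not tested beyond this scaling.

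**Figure D2:**
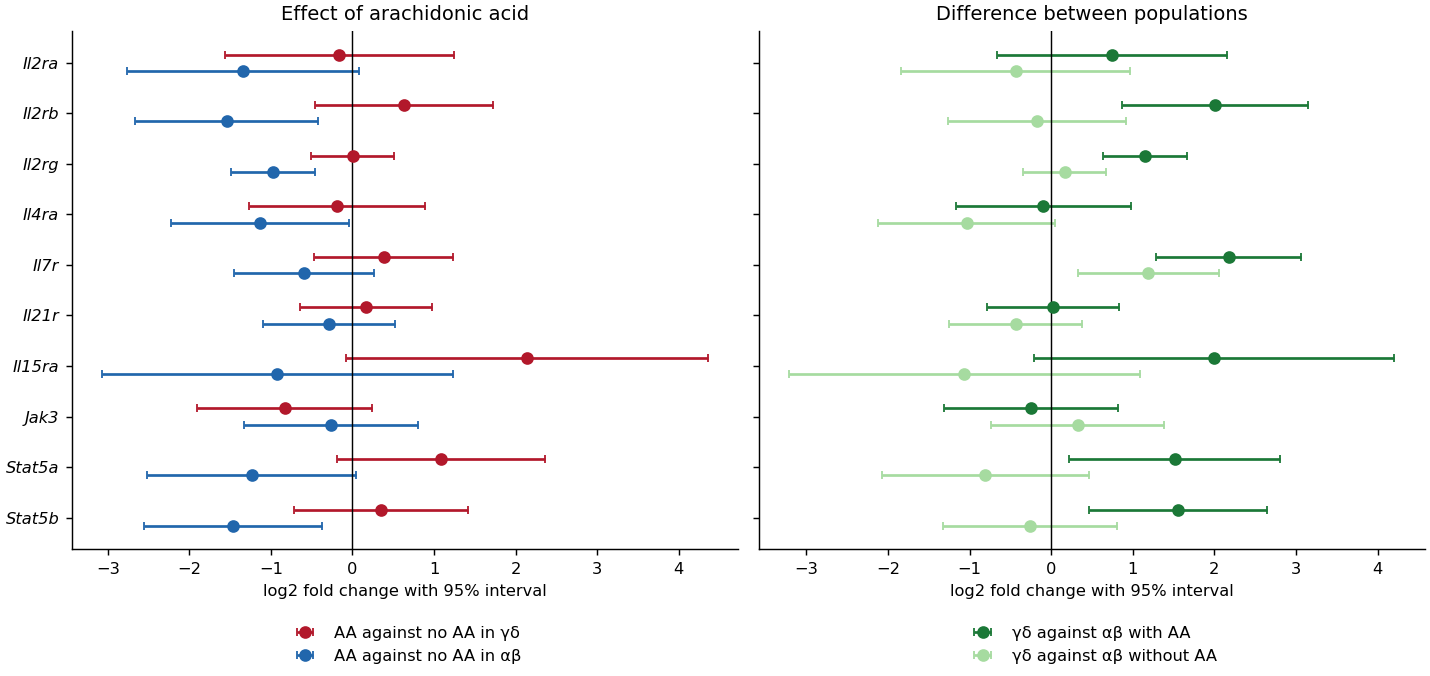
Log2 fold change of each gene with its 95% interval (edgeR, TMM scaling, 3 libraries a group), for AA against no AA in γδ (red) and αβ (blue) cells, and for γδ against αβ with AA (dark green) and without AA (light green). At this scaling all 10 blue points lie below 0, of which Il21r and Jak3 cross it with DESeq2's size factors. With CD3 counts as library size 8 cross it, at a median of all genes of 2.11. The intervals of Il7r, Il2rg and Il2rb in γδ against αβ with AA lie above 0. With CD3 counts as library size Il2rg is at -1.24 there, at a median of all genes of -2.64.

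In γδ cells, 7 of the 10 genes were higher with AA at TMM scaling, beside 44.8% of all genes. With CD3 counts as library size 9 were higher, at a median over all genes of 0.31. The median log2 fold change at TMM scaling, 0.26, stood beside -0.06 over all genes. At an adjusted p under 0.05 edgeR called 0 of 10, beside 0.00905% of all genes, and 0 of 10 had an unadjusted p under 0.05, beside 7.24%. DESeq2 and voom also called 0 of 10, beside 1.26% and 0.095% of all genes. Il15ra had the largest difference, at 42.3 ± 20.6 CPM with AA and 9.57 ± 8.24 CPM without AA (SD, n = 3), a log2 fold change of 2.14 ± 1.03 with an interval of -0.07 to 4.36 and an edgeR adjusted p of 0.635. It was the 1 gene of the 10 whose libraries did not overlap, beside 4.86% of all genes that were higher without overlap. Without the library of 7 counts and its αβ counterpart the difference was 1.53 ± 0.91. Of the 11 dendritic cell markers 3 were higher with AA in γδ without overlap, Flt3, Zbtb46 and Fscn1, and 1, Itgax, was lower. Fscn1 was at 2470, 591 and 1189 CPM in γδ with AA, against 50.2, 153 and 26.4 CPM in γδ without AA. Flt3 was at 58.25, 36.2 and 90.3 CPM in γδ with AA, against 8.26, 7.89 and 2.36 CPM in γδ without AA. Of the 9 neutrophil markers 2 were higher without overlap, and their sum was 1277 to 3239 CPM in γδ with AA and 286 to 1275 CPM in γδ without AA. The part of these cells in the Il15ra values was not tested. Stat5a was at 1.08 ± 0.59 (interval -0.19 to 2.36), and 0.87 ± 0.68 without those libraries. Jak3 was at -0.83 ± 0.50 (interval -1.90 to 0.24). Il2rg was at 0.01 ± 0.24, with an interval of -0.50 to 0.52, the narrowest of the 10. The remaining 6 genes lay between -0.19 and 0.63, and leaving out the 2 libraries turned the sign of Il2rg, Il4ra and Il21r, which were near 0.

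The effect of AA in γδ minus that in αβ was above 0 for 9 of 10 genes at TMM scaling, beside 48.0% of all genes. With CD3 counts as library size it was above 0 for 4 of 10, at a median over all genes of -1.60. At TMM scaling the median of the 10 genes was 1.08, beside -0.08 over all genes. At an adjusted p under 0.05 edgeR called 0 of 10, beside 0.0% of all genes, and DESeq2 and voom called 0, beside 1.45% and 0.0%. At an unadjusted p under 0.05, 4 of 10 were above 0, beside 3.86% of all genes. These were Stat5a at 2.32 ± 0.84, Il2rb at 2.18 ± 0.73, Stat5b at 1.82 ± 0.71 and Il2rg at 0.98 ± 0.34 on the log2 scale, with edgeR adjusted p of 0.451, 0.442, 0.472 and 0.442. Il15ra had the largest difference, 3.06 ± 1.43, with an interval of -0.01 to 6.14. Jak3 was the gene below 0, at -0.57 ± 0.70. Without the 2 libraries that go against their labels the values were 2.12 ± 0.95 for Stat5a, 1.73 ± 0.69 for Il2rb, 1.61 ± 0.90 for Stat5b and 0.87 ± 0.45 for Il2rg. With CD3 counts as library size Il2rb was at 1.28 ± 1.08 and Stat5a at 0.93 ± 1.28, while Il2rg and Stat5b were at -0.51 ± 1.11 and -0.37 ± 1.36.

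**Figure D3:**
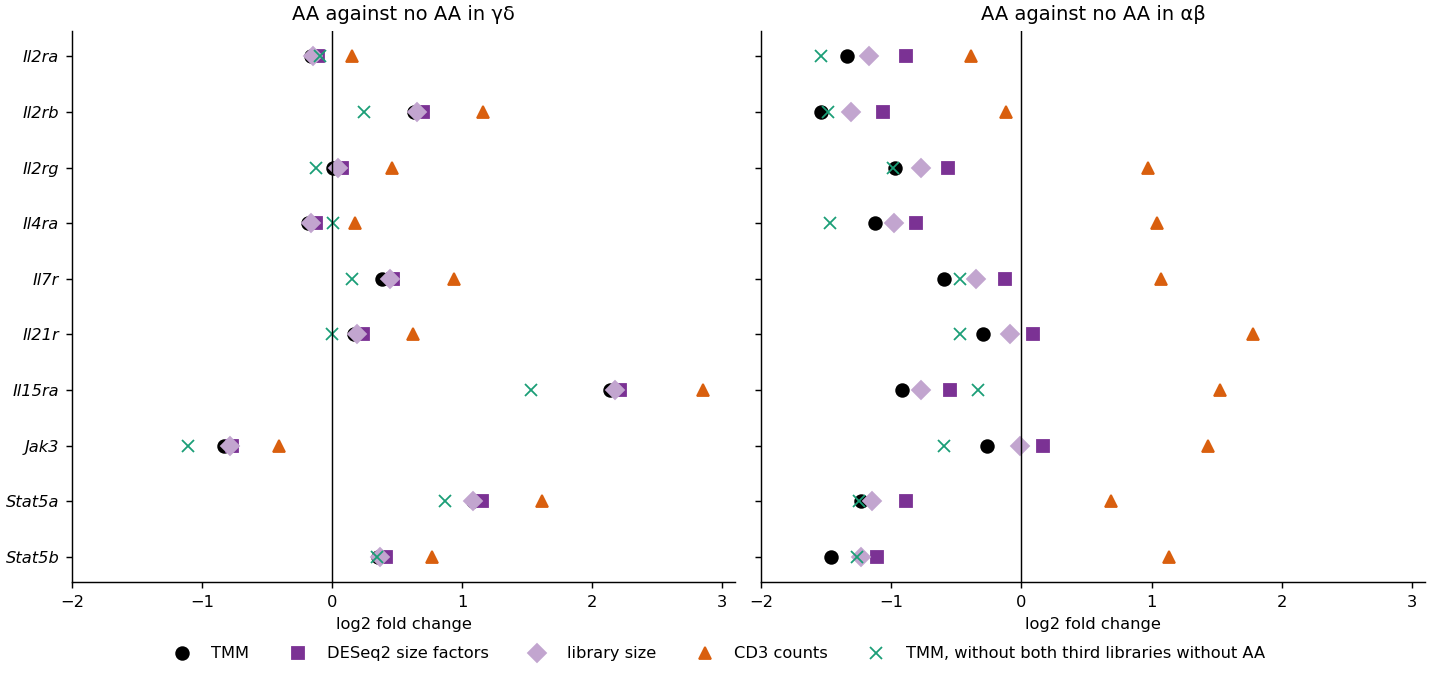
Log2 fold change of each gene with AA against no AA in γδ (left) and αβ (right) cells under 4 scalings of the libraries, and at TMM scaling without both replicate 3 libraries without AA. In αβ cells 8 of 10 genes are above 0 with CD3 counts as library size (orange), where the median of all genes is 2.11. All 10 are below 0 at TMM scaling (black). In γδ cells the scalings differ less.

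With AA, 8 of the 10 genes were higher in γδ than in αβ libraries at TMM scaling, beside 45.0% of all genes, and 7 with DESeq2's size factors or library size alone. With CD3 counts as library size 2 of 10 were higher, at a median over all genes of -2.64. Il7r, the IL-7 receptor chain, stood at 536 ± 111 CPM in γδ and 119 ± 61.7 CPM in αβ libraries (SD, n = 3 each), a 4.52-fold difference. At an adjusted p under 0.05 edgeR called 0 of 10, beside 0.0226% of all genes. At an unadjusted p under 0.05, 5 of 10 were higher, beside 6.19% of all genes, and the libraries of 6 of 10 were higher without overlap, beside 9.1% of all genes. DESeq2 and voom with quality weights each called 2 of 10 as higher, Il2rg and Il7r, beside 1.6% and 0.412% of all genes called higher. The median log2 fold change of the 10 genes was 1.33, beside -0.19 over all genes. The comparisons of AA in αβ and of γδ against αβ with AA share the 3 libraries of αβ cells with AA.

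Il7r differed by a log2 fold change of 2.18 ± 0.42 (interval 1.28 to 3.07) with an edgeR adjusted p of 0.0852. Its edgeR adjusted p was 0.0463 with the 2 libraries that go against their labels left out of the fit. Neither of them is in this comparison, and the difference there was 2.19 ± 0.39. Over the alternatives its adjusted p ranged from 6.74e-08 to 0.868. Il2rg differed by 1.15 ± 0.24 (interval 0.63 to 1.67) with an edgeR adjusted p of 0.102, in a range of 0.0036 to 0.230 over the same alternatives. Il2rb differed by 2.01 ± 0.53 (interval 0.87 to 3.14) with an edgeR adjusted p of 0.190. Stat5b was at 1.56 ± 0.51 and Stat5a at 1.51 ± 0.60, with edgeR adjusted p of 0.221 and 0.232. Il15ra was at 1.997 ± 1.03, Il2ra at 0.75 ± 0.66 and Il21r, Il4ra and Jak3 between -0.25 and 0.03. The CD3 genes summed to 406, 543 and 316 CPM in γδ with AA, against 127, 36.8 and 255 CPM in αβ with AA. Of the 11 T cell markers 9 were higher in γδ without overlap and 0 lower, beside 9.1% of all genes higher without overlap. With CD3 counts as library size the log2 difference was 0.15 ± 0.75 for Il7r and 0.16 ± 0.76 for Il2rb, while Il2rg was at -1.24 ± 0.80, where the median over all genes was -2.64. Per CD3 count, Il7r stood at 1.02, 1.17 and 1.77 in γδ with AA and 1.455, 1.68 and 0.430 in αβ with AA, which overlap.

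Without AA, Il7r had the lowest p of the 10 genes at TMM scaling with all libraries. Its log2 fold change in γδ against αβ was 1.19 ± 0.40 (interval 0.33 to 2.06, edgeR adjusted p = 1.00), with all 3 γδ libraries higher than all 3 αβ libraries. Il7r was the 1 of 10 that was higher without overlap, beside 3.14% of all genes, and the 1 of 10 with an unadjusted p under 0.05, beside 3.3% of all genes. At an adjusted p under 0.05 edgeR called 0 of 10, beside 0.0% of all genes, and DESeq2 and voom called 0, beside 0.357% and 0.0%. Without the 2 libraries that go against their labels the log2 fold change of Il7r was 1.57 ± 0.47, and with CD3 counts as library size it was 0.29 ± 0.75. At TMM scaling 3 of the 10 genes were higher in γδ, beside 45.5% of all genes. With CD3 counts as library size 1 was higher, at a median over all genes of -0.99. Il4ra was lower in γδ at -1.04 ± 0.51 (interval -2.12 to 0.05), or -1.63 ± 0.60 without those libraries. Il2rg was at 0.17 ± 0.24 (interval -0.34 to 0.68). The other 7 genes lay between -1.06 and 0.32, with Il2rb and Il15ra turning to 0.29 and 0.08 without the 2 libraries.

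**Figure D4:**
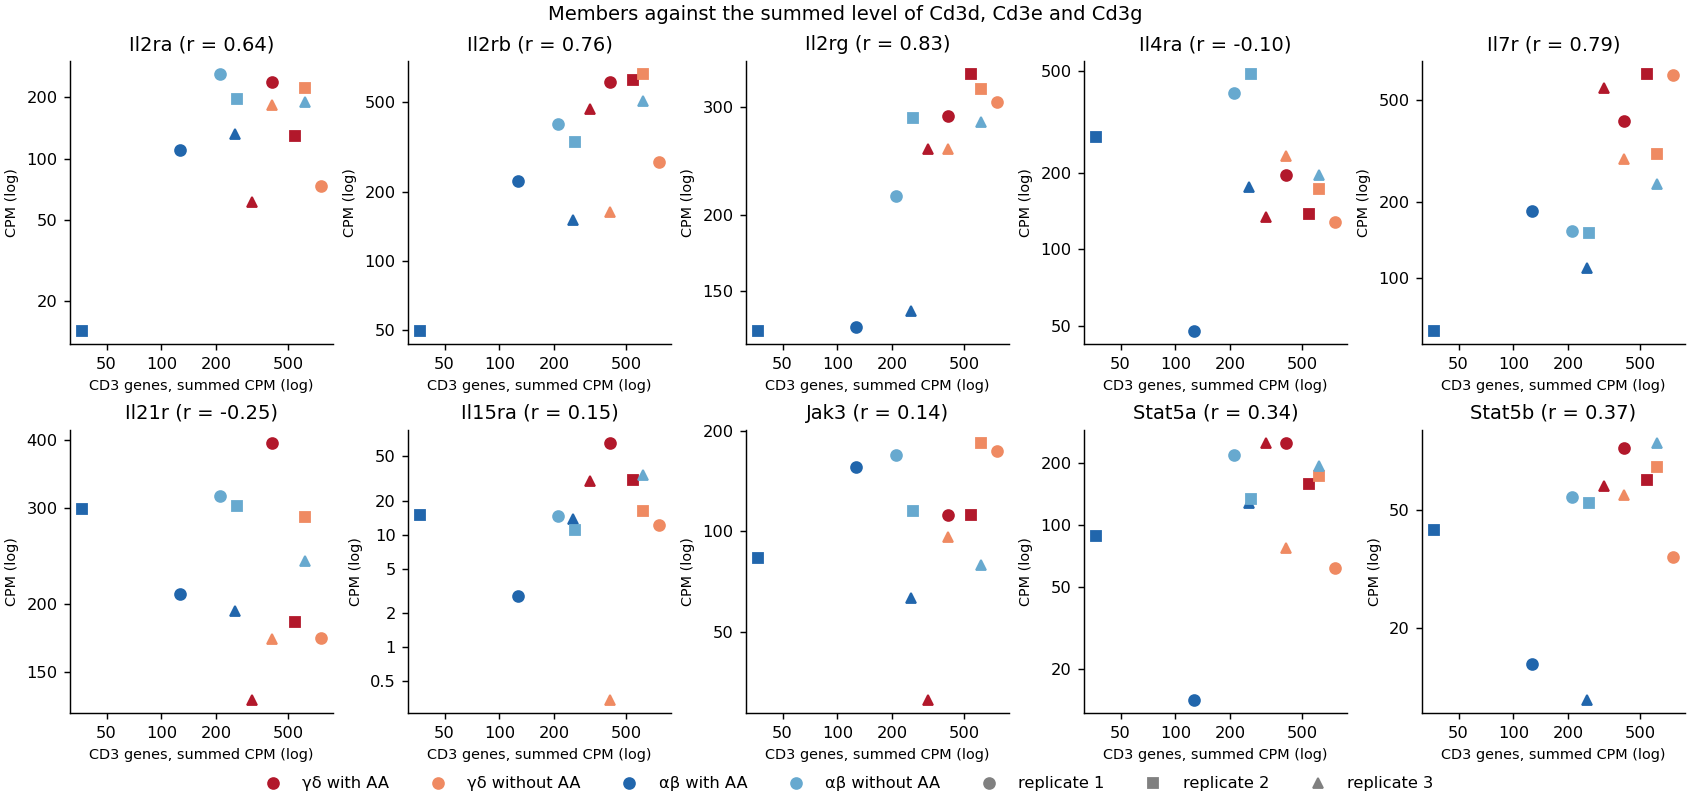
Level of each gene (vertical axis, TMM-scaled CPM, log scale) against the summed level of Cd3d, Cd3e and Cd3g (horizontal axis, log scale) in the 12 libraries, with Pearson's r of log2 values. Il2rg, Il7r and Il2rb track the CD3 sum most closely, at r of 0.83, 0.79 and 0.76, and αβ with AA replicate 2 is at the low end of it.

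Over the 12 libraries, the 45 pairs of these genes had a median Pearson correlation of log2 CPM of 0.27, with 37 above 0. All values share each library's scaling and cell mixture, and the 4 groups differ in level, so these are descriptions. The closest pairs were Il2rb with Il2rg at 0.77, Il2rg with Il7r at 0.77 and Il2rg with Stat5b at 0.75, and the most opposed was Il7r with Il21r at -0.43. Il2rg, Il7r, Il2rb and Il2ra correlated with the summed CD3 level at 0.83, 0.79, 0.76 and 0.64, whereas Jak3 and Il15ra were at 0.14 and 0.15. Il4ra correlated at 0.84 with the 11 dendritic cell markers and at 0.58 with the 8 B cell markers. H2-Aa and H2-Ab1, which B cells and macrophages also express, made up 39.1% to 97.1% of the dendritic sum, and Flt3 and Fscn1 were highest in γδ with AA, where Il4ra was not. Il7r was at -0.77 with the B cell markers and -0.74 with the 8 basophil and mast cell markers. All 11 dendritic cell markers were detected in αβ libraries, whereas Clec9a was at 0 in γδ with AA and Cd209a at 0 in γδ without AA. Their sum ranged over 3628 to 4339 CPM in γδ with AA, 1963 to 6225 CPM in γδ without AA, 2783 to 8865 CPM in αβ with AA and 3823 to 13930 CPM in αβ without AA, and their part in the Il4ra levels was not tested.

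Among 10123 named genes at 5 CPM or more, the pattern most like that of Il2rg over the 12 libraries was that of Cd82 and Ndfip1, at Pearson's r of 0.96 each. For Il2rb it was Rgs16 at 0.96 and Ctsw, a cathepsin of cytotoxic lymphocytes, at 0.93, and for Il7r Arhgap31 at 0.92 and Id2, an inhibitor of DNA binding, at 0.92. Stat3 was the gene most like Stat5a, at 0.96, followed by Son. Irf8, a transcription factor of B cells and dendritic cells, was among the 2 most like Il4ra, at 0.93, beside Dnajc7. Il2ra was most like Syncrip and Sae1, Il21r like Ncoa3 and Cfl2, Il15ra like Serpinf1 and Trim13, Jak3 like Plxdc2 and Rttn, and Stat5b like Nelfb and Rab18, at r of 0.86 to 0.97.

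Of the 8 cytokine genes, 5 passed the filter, 0 were called in any comparison, and 7 had at least 10 counts in some library. Il2, the T cell growth factor, had 47, 16 and 0 counts in γδ with AA, 52, 34 and 25 in γδ without AA, 4, 7 and 2 in αβ with AA and 219, 83 and 28 in αβ without AA. The αβ libraries with AA were all lower than those without AA, at 0.366 ± 0.00452 CPM with AA and 5.11 ± 4.65 CPM without AA (edgeR adjusted p = 0.5305). Il7, the ligand of Il7r made mainly by stromal cells, had 271, 181 and 268 counts in γδ with AA, 10, 75 and 0 in γδ without AA, 0, 8 and 1 in αβ with AA and 15, 0 and 10 in αβ without AA. All 3 γδ libraries with AA were higher than the other 9. The log2 fold change of Il7 was 3.35 ± 2.02 with AA against no AA in γδ (edgeR adjusted p = 0.668) and 5.86 ± 2.29 in γδ against αβ with AA (edgeR adjusted p = 0.231). Il15 stood at 41.0, 33.1 and 13.85 CPM in γδ with AA, 17.2, 7.36 and 8.77 CPM in γδ without AA, 22.6, 14.0 and 49.4 CPM in αβ with AA and 11.8, 2.62 and 26.1 CPM in αβ without AA, with overlap in each comparison with AA. Il4 had 0 to 84 counts a library, Il13 0 to 299, Il21 0 to 24 and Tslp 0 to 13.

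Of the 3 other receptor chains, 0 were called with AA in either population. Crlf2, which pairs with Il7r to bind TSLP, stood at 56.1 ± 9.79 CPM in γδ with AA and 56.8 ± 10.04 CPM in γδ without AA. In αβ it was lower without overlap, at 29.3 ± 16.9 CPM with AA and 60.5 ± 5.18 CPM without AA (log2 fold change -1.04 ± 0.46, edgeR adjusted p = 0.470). Il13ra1, which pairs with Il4ra, stood at 42.7, 14.1 and 66.8 CPM in γδ with AA, 20.2, 10.1 and 0 CPM in γδ without AA, 0, 16.5 and 43.8 CPM in αβ with AA and 1.90, 0.404 and 21.95 CPM in αβ without AA. Of the 8 other JAK and STAT genes 0 were called, with 2 at an unadjusted p under 0.05 in the αβ comparison, both lower, beside 6.01% of all genes, and 2 in the γδ comparison, both higher, beside 3.38%. In γδ against αβ with AA 5 of the 8 were higher at that p, beside 6.19% of all genes. Stat4, the STAT of IL-12 signals, was at 297, 146 and 184 CPM in γδ with AA, against 52.6, 44.9 and 37.2 CPM in αβ with AA, without overlap (log2 fold change 2.22 ± 0.36, edgeR adjusted p = 0.0599). Leaving the 2 libraries that go against their labels out of the fit gave 2.20 ± 0.39, which passed (edgeR adjusted p = 0.0463). Neither of them is in this comparison, so its libraries stayed the same. Only the filter, the shared fit and the adjustment changed. Stat4 was at 91.5, 146.5 and 78.85 CPM in γδ without AA, against 111, 92.7 and 113 CPM in αβ without AA, which overlap. Jak2 was at 127 ± 37.4 CPM in γδ with AA and 35.55 ± 18.3 CPM in γδ without AA (edgeR adjusted p = 0.635). Jak1, which acts beside JAK3 at these receptors, was at 715 ± 52.8 CPM in γδ with AA and 445 ± 63.4 CPM in αβ with AA, without overlap (edgeR adjusted p = 0.221).

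Of the 18 inhibitors of cytokine signalling, 0 were called in any of these comparisons. Cish, a feedback inhibitor that STAT5 switches on, stood at 63.7, 55.2 and 57.7 CPM in γδ with AA, against 23.9, 44.7 and 23.6 CPM in γδ without AA. Cish was at 7.92, 14.2 and 33.4 CPM in αβ with AA, lower than the 65.3, 44.7 and 58.4 CPM in αβ without AA and than γδ with AA in each library (log2 fold changes -1.61 ± 0.53 and, for γδ against αβ with AA, 1.67 ± 0.53, edgeR adjusted p = 0.409 and 0.221). The Cish window held a pair of STAT5 consensus matches, in capitals, on the plus strand of GRCm38.p6 (chr9:107296659-107296678), in the first bases after its RefSeq start.
Cish: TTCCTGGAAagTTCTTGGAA
Socs2, another STAT5-induced inhibitor, stood at 71.9, 37.2 and 83.8 CPM in γδ with AA, against 3.30, 6.83 and 2.36 CPM in γδ without AA. Socs2 was at 16.9, 11.8 and 4.54 CPM in αβ with AA, against 10.6, 7.015 and 33.1 CPM in αβ without AA. All γδ libraries with AA were higher than the other 9, a log2 fold change of 3.94 ± 0.81 in γδ (edgeR adjusted p = 0.206). Socs6 was at 94.4 ± 64.7 CPM in γδ with AA and 25.7 ± 12.8 CPM in γδ without AA (edgeR adjusted p = 0.635). Ptprc, the CD45 phosphatase of the sort gate, was at 663 ± 58.0 CPM in αβ with AA and 1120 ± 48.8 CPM in αβ without AA, lower without overlap (edgeR adjusted p = 0.4495).

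Of the 28 other genes known to be induced by IL-2 and STAT5, 1 fell with AA in αβ cells, beside 0.0136% of all genes called, and 0 rose. The median log2 fold change of the list was -0.96 (24 lower and 4 higher), beside 0.12 over all genes. With CD3 counts as library size 6 were lower and 22 higher, at a median over all genes of 2.11. At TMM scaling 12 were lower at an unadjusted p under 0.05, beside 6.01% of all genes. The gene was Tbx21, which encodes the type 1 factor T-bet, with 1 count over the 3 αβ libraries with AA. Tbx21 was at 21.0, 27.0 and 21.1 CPM in γδ with AA, 17.3, 43.2 and 5.93 CPM in γδ without AA, 0, 0 and 0.182 CPM in αβ with AA and 30.9, 25.7 and 53.2 CPM in αβ without AA (edgeR adjusted p = 0.0377 for AA in αβ). Tbx21 was 1374-fold higher in αβ without AA than with AA, with a 95% interval of 246 to 54290 for counting error only. That call was kept in 4 of 11 alternatives and in 8 of 12 runs with 1 library left out, at adjusted p of 1.20e-10 to 0.5 and 0.012 to 0.165. It was lost when replicate 1 of αβ with AA was left out (adjusted p = 0.165), when replicate 1, 2 or 3 of αβ without AA was (0.108, 0.0756 and 0.0974), and without both libraries that go against their labels (0.0807). In γδ cells 0 of the 28 were called, 2 were higher at an unadjusted p under 0.05, beside 3.38% of all genes, and the median was 0.29. These 2 were Socs2, given above, and Nfil3, which was named after its values were seen and stood at 146, 90.75 and 292.5 CPM in γδ with AA, against 38.9, 71.7 and 65.9 CPM without AA (log2 fold change 1.58 ± 0.48, edgeR adjusted p = 0.635). Myc, the growth factor-induced regulator of proliferation, was lower in γδ with AA at 163, 158 and 90.3 CPM, against 209.9, 383 and 305 CPM without AA (edgeR adjusted p = 0.635). In αβ Myc was lower with AA too, at 138, 92.6 and 149 CPM, against 307, 248 and 404.5 CPM without AA (edgeR adjusted p = 0.269). Its log2 fold change was -1.13 ± 0.33 in γδ and -1.34 ± 0.33 in αβ.

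In γδ against αβ with AA, 1 of the 28 genes known to be induced by IL-2 and STAT5 was called, Tbx21, which was higher in γδ (edgeR adjusted p = 0.0369), beside 0.0226% of all genes. Its log2 fold change was 9.18 ± 1.28 by edgeR. Pooled counts, 1414 in γδ and 1 in αβ, gave a ratio of 839 after scaling to depth, with an interval of 150.4 to 33170 for counting error only. The call was kept in 5 of 11 alternatives and in 8 of 12 runs with 1 library left out, at adjusted p of 8.46e-10 to 0.206 and 0.0169 to 0.0731. It was lost without γδ with AA replicate 1 or 3 (0.0532 and 0.0521), and with replicate 1 of αβ with AA (0.0661) or of αβ without AA (0.0731) left out. At an unadjusted p under 0.05, 13 were higher and 0 lower, beside 6.19% and 12.3% of all genes, and the median was 1.44 beside -0.19 over all genes. With CD3 counts as library size 6 of 28 were higher and 22 lower, at a median over all genes of -2.64. For the difference of the AA effects 10 were above 0 at an unadjusted p under 0.05, beside 3.86% of all genes, and 0 below, with 0 called.

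**Figure D5:**
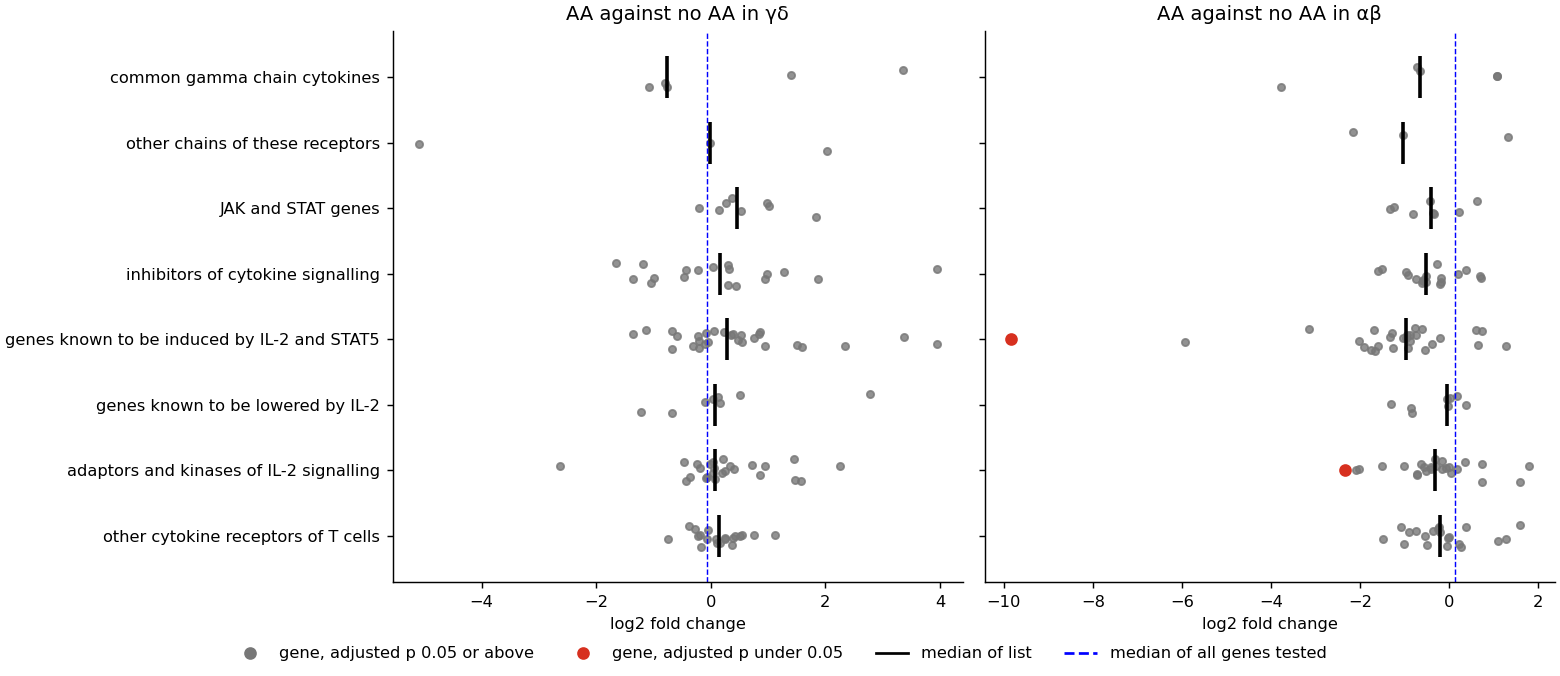
Log2 fold change (horizontal axis, edgeR, TMM scaling) with AA against no AA in γδ (left) and αβ (right) cells for the genes of each list (vertical axis), the 10 members left out. Black bars are list medians, the dashed line the median of all 22107 genes, and red points genes with an adjusted p under 0.05. The red points are Tbx21 and Lck in αβ cells.

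Of the 8 other genes known to be lowered by IL-2, 0 were called. Ccr7, the lymph node homing receptor, stood at 4865, 2533 and 4148 CPM in γδ with AA, against 366, 877 and 430.0 CPM in γδ without AA, higher without overlap (log2 fold change 2.79 ± 0.44, edgeR adjusted p = 0.105). Without the 2 libraries that go against their labels it was 2.59 ± 0.40 and passed (edgeR adjusted p = 0.0425). Mature dendritic cells also express Ccr7. Of their 11 markers 3 were higher without overlap in the same libraries, beside 4.86% of all genes, and 1, Itgax, was lower. The values of Fscn1 and Flt3 are given beside Il15ra. The part of these cells in the Ccr7 values was not tested. Tcf7, the factor of naive and memory T cells, was at 668 ± 223 CPM in γδ with AA, 171 ± 110.0 CPM in αβ with AA and 426 ± 279 CPM in αβ without AA. Bcl6 was at 27.4 ± 16.03 CPM in αβ with AA and 49.8 ± 23.4 CPM in αβ without AA, with overlap.

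Of the 25 adaptors and kinases of IL-2 signalling, 1 fell with AA in αβ, Lck, beside 0.0136% of all genes called. Lck, the kinase bound to CD4 and CD8 that also binds the IL-2 receptor β chain, stood at 260.3, 328.5 and 171 CPM in γδ with AA, 238, 463 and 328 CPM in γδ without AA, 55.9, 78.1 and 87.0 CPM in αβ with AA and 387, 342 and 397 CPM in αβ without AA. The αβ libraries with AA were all lower than those of the other groups, a log2 fold change of -2.35 ± 0.33 in αβ (edgeR adjusted p = 0.0377). With CD3 counts as library size it was -0.39 ± 0.81, and Lck is itself one of the 11 T cell markers. Without the 2 libraries that go against their labels it was -2.38 ± 0.40 and did not pass (edgeR adjusted p = 0.118). The call was kept in 2 of 11 alternatives and in 5 of 12 runs with 1 library left out, at adjusted p of 6.48e-08 to 0.688 and 0.0251 to 0.248. It was lost when replicate 1 or 3 of αβ with AA was left out (0.248 and 0.0777), when replicate 1, 2 or 3 of αβ without AA was (0.21, 0.0897 and 0.148), and without γδ with AA replicate 1 or γδ without AA replicate 3 (0.0708 and 0.0522). Rptor, the mTORC1 scaffold, was at 107 ± 82.3 CPM in γδ with AA and 22.3 ± 7.57 CPM in γδ without AA (edgeR adjusted p = 0.635), and Pik3r1, the regulatory subunit of PI3 kinase, at 123 ± 44.7 and 67.8 ± 4.86 CPM in the same groups (edgeR adjusted p = 0.635). Fyn was at 51.0 ± 10.5 CPM in γδ with AA and 10.8 ± 7.58 CPM in αβ with AA (edgeR adjusted p = 0.202).

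Of the 20 other cytokine receptors of T cells, 0 were called. Il27ra was lower with AA in both populations without overlap, at 168, 145 and 120.3 CPM in γδ with AA and 277.5, 238 and 215 CPM in γδ without AA, and at 84.1, 60.0 and 99.7 CPM in αβ with AA and 159, 127 and 210.5 CPM in αβ without AA (edgeR adjusted p = 0.635 and 0.359). The IL-18 receptor chains were higher in γδ than in αβ with AA without overlap, Il18rap at 124 ± 29.0 CPM in γδ and 32.2 ± 27.4 CPM in αβ, and Il18r1 at 83.6 ± 28.8 CPM in γδ and 19.3 ± 17.4 CPM in αβ (edgeR adjusted p = 0.202 and 0.217). In αβ cells Il18rap was at 32.2 ± 27.4 CPM with AA and 90.7 ± 15.7 CPM without AA (edgeR adjusted p = 0.415). Ifngr1, the interferon γ receptor chain, was at 786 ± 77.4 CPM in γδ with AA and 603 ± 170.5 CPM in γδ without AA.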

How the data were processed

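RNA-seq counts per gene were deposited by the authors for 12 libraries, 3 in each of 4 groups, as 1 table of raw whole-number counts without coordinates. The submitters' processing notes name Bowtie 0.12.2 and mm8 with no role. For the counting program, annotation and strand setting, nothing is given in the sources used here. GENCODE M21 named 55141 of 55401 identifiers; 98.1% matched with their version and 260 stayed unnamed.

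Genes with enough counts (edgeR's filterByExpr, minimum count 10) numbered 22107. One model with a mean per group was fitted over all 12 libraries with TMM scaling and edgeR 4.0.16's quasi-likelihood test (R 4.3.3, limma 3.58.1, 8 residual degrees of freedom, common biological coefficient of variation 1.21), with Benjamini-Hochberg adjustment over all genes and a threshold of 0.05. Correlations used log2 CPM with a prior count of 2. Levels per kilobase used GENCODE M21 exon lengths. CD3 scaling took the counts of Cd3d, Cd3e and Cd3g as library size. The chi-square of counts between replicates, divided by its degrees of freedom, was 45.8 to 228, so each library was counted once. Intervals of count ratios cover counting error only. The code was tested on simulated data.

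Alternatives were DESeq2's size factors, library size alone, CD3 counts as library size, no filter, a filter of 5 CPM in 3 libraries, a replicate block, only the groups compared, DESeq2 1.42.0, voom with quality weights, omitting both replicate 3 libraries without AA, and leaving out each library. Omitting Gm10800 and Gm21738 was chosen after seeing the data, since Gm10800 took 21.9% of replicate 3 of αβ with AA. The members and lists were chosen with earlier results of these data known. Besides the 10 members, the text names per list, for AA in each population and γδ against αβ with AA, up to 4 genes past the threshold or otherwise the 2 of smallest unadjusted p (if the higher group averaged 5 CPM or more), every cytokine with at least 10 counts in some library, and the 2 genes most like each member. Some genes that this rule names are not reported here. Promoter sequences are from RefSeq (GRCm38.p6), which held 9 of the 10 members, Il2rb not among them.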

Additional observations from a re-analysis of the deposited data

How the results depend on the processing

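Of the log2 fold changes of the 10 genes in 5 comparisons, none passed an adjusted p of 0.05 by edgeR as reported or with any 1 library left out, and the cause of the changes below was not tested. Calls appeared in γδ against αβ with AA with DESeq2 (Il2rg 0.82, Il7r 1.80), with voom (Il2rg 1.23, Il7r 2.64), without both replicate 3 libraries without AA (Il7r 2.19), and with no filter (Il2rb 2.11, Il2rg 1.24, Il7r 2.27, Stat5a 1.60). Neither replicate 3 library without AA is in that comparison, so leaving them out changed only the filter, the shared fit and the adjustment there. With no filter, Il2rb was also called for AA in αβ (-1.66), and Il2rb (2.28) and Stat5a (2.40) for the difference of AA effects. The members called therefore numbered 0 as reported, and for γδ against αβ with AA 2 with DESeq2, 2 with voom, 4 with no filter and 1 without both libraries, beside 1 and 2 with no filter for AA in αβ and the difference. Of all genes, 1.6% were called higher with DESeq2, 0.412% with voom, 0.85% with no filter and 0.0922% without both libraries in γδ against αβ with AA. With no filter 0.491% were called lower for AA in αβ and 0.28% above 0 for the difference.

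With CD3 counts as library size the sign turned for AA in αβ in Il2rg 0.97, Il4ra 1.04, Il7r 1.07, Il21r 1.78, Il15ra 1.53, Jak3 1.44, Stat5a 0.69 and Stat5b 1.14, and for AA in γδ in Il2ra 0.15 and Il4ra 0.17. It turned for the difference in Il2rg -0.51, Il4ra -0.87, Il7r -0.14, Il21r -1.16 and Stat5b -0.37, and for γδ against αβ without AA in Il2rg -0.73 and Jak3 -0.84. For γδ against αβ with AA it turned in Il2ra -0.80, Il2rg -1.24, Il21r -2.60, Il15ra -0.63, Stat5a -0.83 and Stat5b -1.39. The median of all genes for AA in αβ was 0.12 as reported, 0.31 with library size alone, 0.51 with the size factors of DESeq2 and 2.11 with CD3 counts. For AA in αβ, Il21r and Jak3 were at 0.088 and 0.16 with DESeq2's size factors and likewise 0.088 and 0.16 in the DESeq2 test, and at 0.027 and 0.088 with the 5 CPM filter. Il21r in γδ against αβ with AA was at -0.29 with DESeq2's size factors and in the DESeq2 test, -0.25 with the 5 CPM filter, -0.12 with library size alone, -0.15 with only the groups compared, -0.076 with voom, -0.029 without Gm10800 and Gm21738 and -0.0080 without both replicate 3 libraries. Jak3 was at 0.15 with voom, and with no filter Il2rg was at -0.0041 for AA in γδ. Without both replicate 3 libraries, Il2rg was at -0.12, Il4ra at 0.0095 and Il21r at -0.00071 for AA in γδ, and Il2rb at 0.29 and Il15ra at 0.077 for γδ against αβ without AA.

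The replicate block turned Il4ra to 0.062 and Il21r to -0.031 in γδ against αβ with AA and called 0 of the 10 genes. Same-numbered libraries had correlations of deviations of -0.182 to 0.137. With 3 libraries a group this cannot show whether they share an animal, culture or batch. A fit of only the groups compared could not be made for the difference of AA effects.

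Leaving out 1 library gave, for AA in αβ, -0.43 to 0.010 for Il21r and -0.69 to 0.185 for Jak3. For AA in γδ it gave -0.72 to 0.215 for Il2ra, -0.18 to 0.13 for Il2rg, -0.37 to 0.0087 for Il4ra and -0.38 to 0.48 for Il21r. It gave -0.14 to 0.74 for Il21r in the difference and -0.94 to 0.14 for Il2rb in γδ against αβ without AA. In γδ against αβ with AA it gave -0.51 to 0.44 for Il4ra, -0.57 to 0.27 for Il21r and -0.67 to 0.23 for Jak3. The 3 shallowest libraries are all αβ with AA, and Il15ra rested on as few as 7 counts.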
